A study of Mus musculus with 9 samples.

Results

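The otoconia genes described here are 6 genes chosen by name, Oc90, Otol1, Otop1, Nox3, Noxo1 and Cyba, out of 54232 genes counted. All 6 were matched from their Ensembl identifiers to mouse symbols. They were followed in bulk RNA sequencing of the cochlear duct at E14.5, in 3 wild type (WT), 3 Prdm16 cGT heterozygote (het) and 3 Prdm16 cGT null embryos. Prdm16 cGT is a gene trap allele that disrupts Prdm16, a zinc finger transcriptional regulator, in the germline rather than in a chosen cell type. Heterozygotes carried a single copy of the trap and null embryos carried it on both chromosomes, and all 9 embryos came from heterozygous matings on the FVB/NJ background with no other treatment. Each library held RNA of the microdissected ducts of both ears of a single embryo, so it contains all the cell types of the duct and whatever surrounding tissue was taken with it.

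Otoconia are the calcium carbonate crystals that load the gravity-sensing membranes of the utricle and saccule, and the mature cochlea has none. Their organic core is built mainly of otoconin-90, encoded by Oc90, around which the collagen-like protein otolin (Otol1) forms a scaffold. Otopetrin 1 (Otop1) is a proton channel, and NADPH oxidase 3 (Nox3) works in a membrane complex with the small subunit p22phox (Cyba) and the organizer protein Noxo1, and mice that lack any one of Otop1, Nox3, Noxo1 or Cyba form no normal otoconia. In the embryo Oc90 is made by nonsensory epithelium across the inner ear, the cochlear duct included.

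Total counts were 25540212 to 29450752 in WT, 24767705 to 27696846 in het and 24095322 to 30819118 in null libraries. A count of 3, taken as the floor of a library, corresponded to 0.0968 to 0.126 CPM, where CPM is the count scaled to a common library size after TMM normalization over the 9 libraries. The targeted gene Prdm16 (ENSMUSG00000039410) ranged from 184 to 225 CPM in WT, from 123 to 151 CPM in het and from 19.1 to 27.4 CPM in null libraries, in the order of the labelled genotypes. Some libraries stood apart in cell type markers. The summed CPM of 7 mesenchyme markers was 1473 in null embryo 3 and 390 and 771 in the first 2 WT embryos, against 33.3 to 93.6 in the other 6 libraries. In WT embryo 3 and null embryo 3 all of 17 hair cell markers had more than 3 reads, whereas 4 or 5 of them were at or under 3 reads in each of the other 7 libraries. The hair cell list was written after the values of Otop1 had been seen.

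Levels of the 6 genes spanned from the top of the list of genes to single reads. Per kilobase of exon, mean levels in WT ducts were 4086 CPM for Oc90, 103 CPM for Otol1, 16.3 CPM for Cyba, 1.04 CPM for Noxo1, 0.164 CPM for Nox3 and 0.139 CPM for Otop1. In this order the libraries of each of the first 4 genes did not overlap with those of the next gene on the per-kilobase scale, over all 9 libraries. Nox3 (0 to 0.322 CPM per kilobase) and Otop1 (0 to 0.394) overlapped and were not separable.

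**Figure D1:**
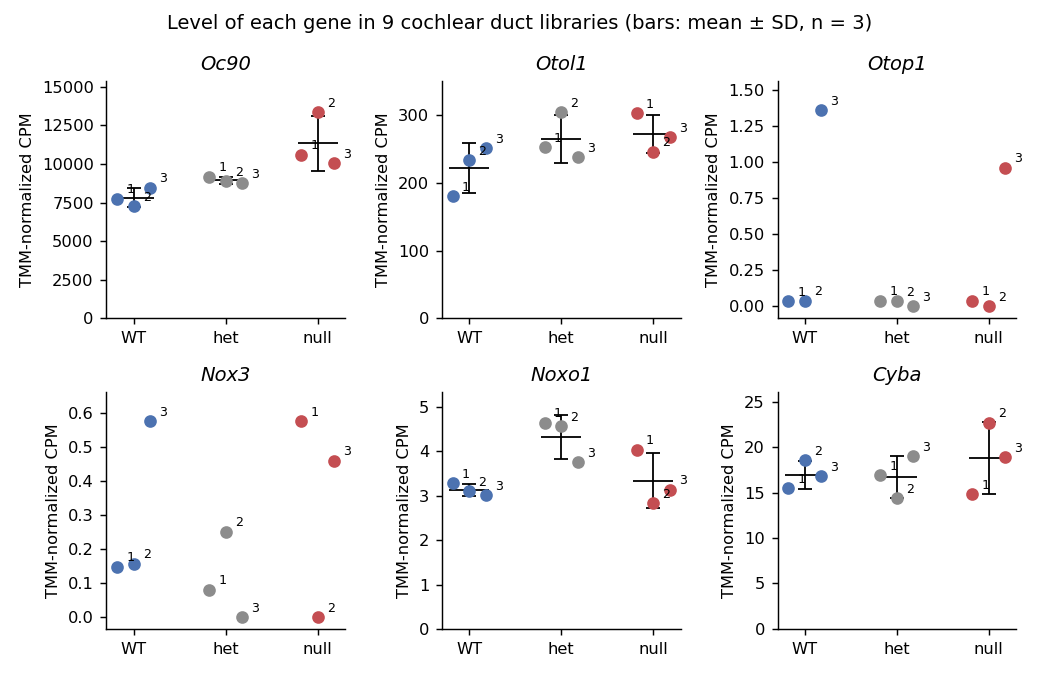
Level of each of the 6 genes (vertical axis, TMM-normalized CPM, linear, a separate scale per gene) in WT, het and null libraries. Points are embryos with their number, and bars are mean ± SD of 3, not drawn for Otop1 and Nox3. Oc90 lay at 7243 to 8455 CPM in WT and 10030 to 13368 CPM in null embryos, a difference that did not pass the edgeR test, and Otop1 is above 1 read in WT 3 and null 3.

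Oc90 was higher in null than in WT ducts in every embryo, with het embryos between them, but the difference did not pass the edgeR test. The gene (ENSMUSG00000015001) lies on the minus strand at chr15:65876053-65912397 of mm10. It took 0.78%, 0.724% and 0.847% of all counts in the 3 WT libraries, 0.923%, 0.889% and 0.879% in het and 1.07%, 1.34% and 0.97% in null libraries. By count it was the first gene of the whole list in 8 libraries and the second in null embryo 3, behind the cartilage collagen Col2a1. Per kilobase of exon, 1 or 2 genes lay above it in each WT and het library and 0 in each null library. In CPM, Oc90 was 7739, 7243 and 8455 in WT, 9174, 8867 and 8755 in het and 10600, 13368 and 10030 in null embryos. The 3 genotypes did not overlap and were ordered WT, het, null. This order without overlap was found in 160 of 17797 genes (0.899%), and Oc90 was the only one of the 6 genes among them.

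Group means of Oc90 were 7812 ± 609 CPM in WT, 8932 ± 217 CPM in het and 11333 ± 1785 CPM in null ducts (SD, n = 3). Between null and WT the log2 fold change was 0.53 (1.45-fold, standard error 0.163), with an unadjusted p of 0.0119 and an edgeR quasi-likelihood, Benjamini-Hochberg adjusted p of 0.219. DESeq2 gave the same fold change with an adjusted p of 0.0011, and so called Oc90 where edgeR did not. limma-voom gave an adjusted p of 0.093. Between het and WT the log2 fold change was 0.19 (1.14-fold, standard error 0.0847, edgeR adjusted p = 0.373), and DESeq2 gave an adjusted p of 0.0279 with a fold change below the threshold of 0.5. Between null and het it was 0.34 (1.27-fold, standard error 0.148, edgeR adjusted p = 0.438), and 0.21 without null embryo 2.

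The 3 null values were not equally far from WT, since null embryo 2, at 13368 CPM, was well above the other 2. Without null embryo 2 the log2 fold change fell to 0.40, and over all 6 fits that left out 1 embryo it ranged from 0.40 to 0.62 with edgeR adjusted p from 0.061 to 0.536. With WT embryo 3 and null embryo 3 both left out, a choice made after seeing the data, it was 0.67 and passed the edgeR test (adjusted p = 0.0429), in a fit that called 4.53% of all genes. These libraries hold the highest Oc90 of the WT group and the lowest of the null group, so leaving them out widens the difference by construction, and the pass is no added evidence for it. The embryo with the highest Oc90, null embryo 2, had the lowest mesenchyme marker sum, 33.3 CPM, and null embryo 3, with the highest mesenchyme sum, had the lowest Oc90 of the null group. Their part in the Oc90 difference was not tested. In bulk RNA, fewer cells of a type and less RNA per cell cannot be told apart.

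Because Oc90 is a gene of nonsensory epithelium, it was also set against markers of the duct. The summed CPM of 21 markers of the nonsensory roof epithelium lay between 2792 and 3264 in all libraries. Relative to this sum, Oc90 was 2.64, 2.59 and 2.59 in WT, 2.88, 2.95 and 2.9 in het and 3.36, 4.33 and 3.14 in null embryos. The genotypes kept their order and did not overlap. The sum holds members that differ in opposite directions, such as Lrp2 and Ecel1, lower on average in null ducts, and Meg3, higher on average. Without Lrp2 and Ecel1, a choice made after seeing the data, the sum of the other 19 was 1973 to 2262 CPM in WT and 2438 to 2560 CPM in null libraries. Oc90 relative to it was 3.67 to 3.89 in WT, 3.94 to 4.11 in het and 3.92 to 5.48 in null embryos, so null embryo 3 then lay below the het embryos and just above WT. Relative to the summed CPM of 6 general epithelial markers (Epcam, Cdh1, Cldn6, Krt8, Krt18 and Esrp1, a list written after values were seen), Oc90 was 3.85, 3.53 and 3.81 in WT, 4.21, 4.02 and 3.88 in het and 4.8, 4.85 and 5.03 in null embryos. On this scale null embryo 2 no longer stood above the other null embryos, and its epithelial sum of 2755 CPM was the highest of the 9, against 1994 to 2254 CPM elsewhere.

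**Figure D2:**
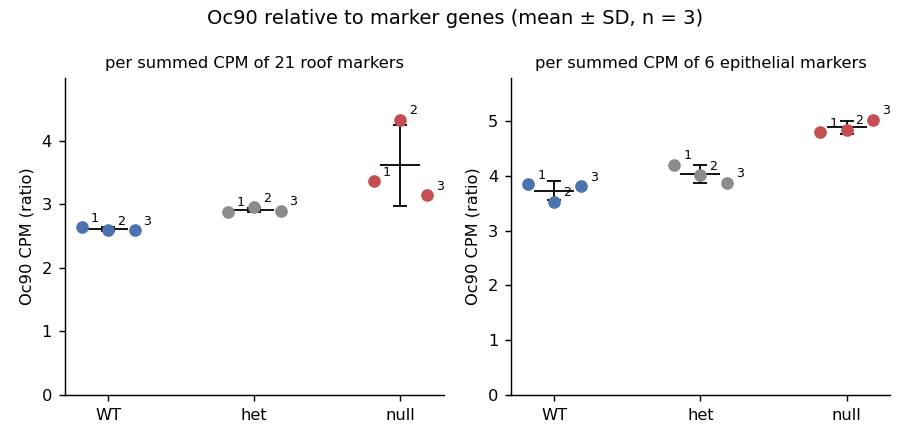
Oc90 CPM divided by the summed CPM of 21 roof markers (left) and of 6 epithelial markers (right), by genotype. Points are embryos with their number and bars are mean ± SD of 3. WT lies between 2.59 and 2.64 on the left and 3.53 and 3.85 on the right, below every het and null embryo in both panels.

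Most of the roof markers themselves did not pass the test. Of 21 tested between null and WT, 16 had a positive log2 fold change and 1 passed the edgeR threshold (1.71% of all genes did), while DESeq2 called 4, of which Fibin, Meis2 and Lurap1l were higher in null ducts and Ecel1 was lower. At an unadjusted p under 0.05 there were 10 of 21, against 12.2% of all genes. The median was 0.20 against 0.01 over all genes tested. The gene called by edgeR was Fibin, which encodes a secreted protein, at 54.5 ± 7.75 CPM in WT and 94.3 ± 5.03 CPM in null ducts (SD, n = 3, log2 fold change 0.79, edgeR adjusted p = 0.0165). Between null and het, 15 of 21 were positive (median 0.15), 8 had an unadjusted p under 0.05 (11.4% of all genes) and 2 passed (0.615% of all genes), Fibin (0.50, at the fold change threshold, edgeR adjusted p = 0.032) and the homeobox gene Meis2 (0.64, edgeR adjusted p = 0.0323). DESeq2 called Meis2 and not Fibin there, and limma-voom called 1. Between het and WT, 12 of 21 were positive (median 0.05), and edgeR, DESeq2 and limma-voom each called 0, with 8 at an unadjusted p under 0.05 (13.1% of all genes). The roof markers with the highest CPM were Lrp2, the endocytic receptor megalin, with a log2 fold change of -0.44 between null and WT (edgeR adjusted p = 0.261), and Meg3, a long noncoding RNA, with 0.45 (edgeR adjusted p = 0.258).

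Over 9 libraries, the genes whose log2 CPM followed Oc90 most closely among 15267 genes were Bcam (Pearson r = 0.994), Ssc4d (0.985), Eno3 (0.98), Prss33 (0.972) and Cuedc1 (0.972). These correlations are descriptions over libraries that also differ in genotype and tissue content. Bcam, a laminin receptor of basal epithelial surfaces, had a mean of 200 CPM.

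Otol1 did not separate the genotypes. The gene (ENSMUSG00000027788) lies on the plus strand at chr3:70007613-70028708 of mm10 and had 4870 to 8481 reads per library. It had 180, 234 and 251 CPM in WT, 253, 305 and 238 CPM in het and 303, 246 and 268 CPM in null embryos. WT embryo 1 was the lowest library and the other 8 lay between 234 and 305 CPM, so all groups overlapped. Means were 221.8 ± 36.9, 265.4 ± 35.4 and 272.6 ± 28.6 CPM in WT, het and null (SD, n = 3). The log2 fold change was 0.29 between null and WT (standard error 0.138, edgeR adjusted p = 0.454), 0.26 between het and WT (standard error 0.121, edgeR adjusted p = 0.402) and 0.04 between null and het (standard error 0.117, edgeR adjusted p = 0.917). With no filter on low counts the adjusted p between het and WT was 0.000135 in edgeR at the same 0.26, below the fold change threshold, and over the other alternatives it was 0.152 or more. Without WT embryo 1, the lowest library, Otol1 differed by 0.13 between het and WT and by 0.17 between null and WT, and without het embryo 2 by 0.14 between het and WT. Per kilobase, the level of Oc90 was 32.8 to 61.3 times that of Otol1, its partner in the otoconial core, with the highest ratio in null embryo 2 and the lowest in het embryo 2. Its closest genes over the 9 libraries were Spred3 (r = 0.935), Etv5 (0.934) and Prokr2 (0.929). Spred3 is an inhibitor of the Ras to ERK pathway and Etv5 an ETS factor known as a target of fibroblast growth factor signaling.

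Among the 6 genes, promoter windows of 5 were in the RefSeq table of GRCm38.p6 (Otol1, Otop1, Nox3, Noxo1 and Cyba), each running from 250 bases before to 50 bases after the start that RefSeq gives. For Otol1, Nox3 and Noxo1 this start is also that of the GENCODE gene. For Cyba the RefSeq start lies a few bases upstream of the GENCODE start, and the Otop1 window, at chr5:38277154-38277453, lies inside the GENCODE gene, downstream of its first base. The windows of Otol1, on the plus strand at chr3:70007363-70007662, and of Noxo1, on the plus strand at chr17:24695984-24696283, are shown because they are the extremes of base composition among the 5. Capitals mark the CCAAT box in Otol1 (the letters CCAAT or, on the other strand, ATTGG) and the GC boxes in Noxo1 (GGGCGG or, on the other strand, CCGCCC).
Otol1: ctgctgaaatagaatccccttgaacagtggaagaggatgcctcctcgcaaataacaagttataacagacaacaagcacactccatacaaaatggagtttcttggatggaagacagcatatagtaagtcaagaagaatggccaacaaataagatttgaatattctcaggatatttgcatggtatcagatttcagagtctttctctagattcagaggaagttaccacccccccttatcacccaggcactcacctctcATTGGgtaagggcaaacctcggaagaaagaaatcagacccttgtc
Noxo1: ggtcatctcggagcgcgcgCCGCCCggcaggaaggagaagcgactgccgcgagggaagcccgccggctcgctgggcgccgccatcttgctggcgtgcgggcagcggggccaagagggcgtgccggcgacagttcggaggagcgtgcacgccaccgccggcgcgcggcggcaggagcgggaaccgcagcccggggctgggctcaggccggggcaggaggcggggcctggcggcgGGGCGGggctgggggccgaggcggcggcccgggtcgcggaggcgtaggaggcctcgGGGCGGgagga
The Otol1 window was 42.3% G and C with 2 CpG, and the Noxo1 window 80.3% with 46 CpG, against medians of 52.7% and 7 over 32851 promoter windows of the same length. The windows of Nox3, Cyba and Otop1 were 43.3%, 60.7% and 71.7% G and C with 6, 9 and 18 CpG. A CCAAT box on either strand was in the Otol1 window (1 match) and in 37.4% of all windows. GC boxes were in the windows of Otop1 (2), Noxo1 (3) and Cyba (2), and in 35.7% of all windows. The letters TATAAA, on either strand and present in 13.6% of all windows, and TAATCC, the core recognised by Otx factors and present in 7.06%, were in none of the 5 windows. The motifs share no bases with each other in the windows shown.

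Otop1 was read in only 2 libraries beyond single reads. The gene (ENSMUSG00000051596) lies on the plus strand at chr5:38275972-38304217 of mm10. It had 1, 1 and 40 reads in WT, 1, 1 and 0 in het and 1, 0 and 23 in null embryos, which is 1.36 CPM in WT embryo 3 and 0.963 CPM in null embryo 3. In the libraries with 0 reads, the floor of 3 reads was 0.11 CPM in het embryo 3 and 0.0968 CPM in null embryo 2. The filter on low counts left Otop1 out of all 3 comparisons. With no filter, null against WT differed by -0.58 on the log2 scale, an edgeR adjusted p of 0.891 and a standard error of 1.16. Between het and WT it was -4.05 (standard error 0.948, edgeR adjusted p = 0.0012), where the WT reads came from WT embryo 3 except for 1 read in each of the other 2.

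The same 2 libraries also carried most reads of several hair cell genes. Otof, the calcium sensor of hair cell synapses, had 412 reads in WT embryo 3 and 507 in null embryo 3, against 0 to 22 in the other 7. Myo15, the motor of stereocilia growth, had 508 and 606 reads against 41 to 69. The LIM homeobox gene Lhx3 had 79 and 81 reads against 0 to 10. Of the transcription factors of early hair cells, Pou4f3 had 378 and 335 reads against 69 to 230, and Gfi1 had 80 and 103 against 5 to 39. Atoh1, Myo7a, Cdh23 and Tmc1 overlapped with the other libraries, and the reads of the other 13 markers did not. Atoh1, which starts hair cell differentiation, had 210 and 163 reads against 108 to 185, and Myo7a had 552 and 1048 against 390 to 905. The summed CPM of the 17 hair cell markers was 340 in WT embryo 3 and 444 in null embryo 3, against 205 to 277 in the other 7. The larger part of this sum was Myo6 and Cdh23, at means of 106 and 91.6 CPM, which had many reads in every library. Of the 17, 10 were tested between null and WT and 1 was called by edgeR (1.71% of all genes). This was Myo7a, which was higher in null ducts (log2 fold change 1.08, edgeR adjusted p = 0.0257). Unadjusted p was under 0.05 for 1 of 10 between null and WT (12.2% of all genes). It was for 3 of 9 between het and WT (13.1%) and for 2 of 10 between null and het (11.4%). Between null and het DESeq2 called 1, Myo7a (2.12% of all genes), and edgeR called 0 (0.615%). The part of hair cells in the Otop1 reads was not tested. Dorsal otic (vestibular) markers, 5 genes, summed to 42.7 CPM in WT embryo 3 and 45.5 CPM in null embryo 3, within the 31.1 to 49.8 CPM of the other libraries. Most of this sum was Hmx3, at a mean of 26.8 CPM over the 9 libraries. The part of vestibular tissue in the Otop1 and hair cell reads was not tested.

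**Figure D3:**
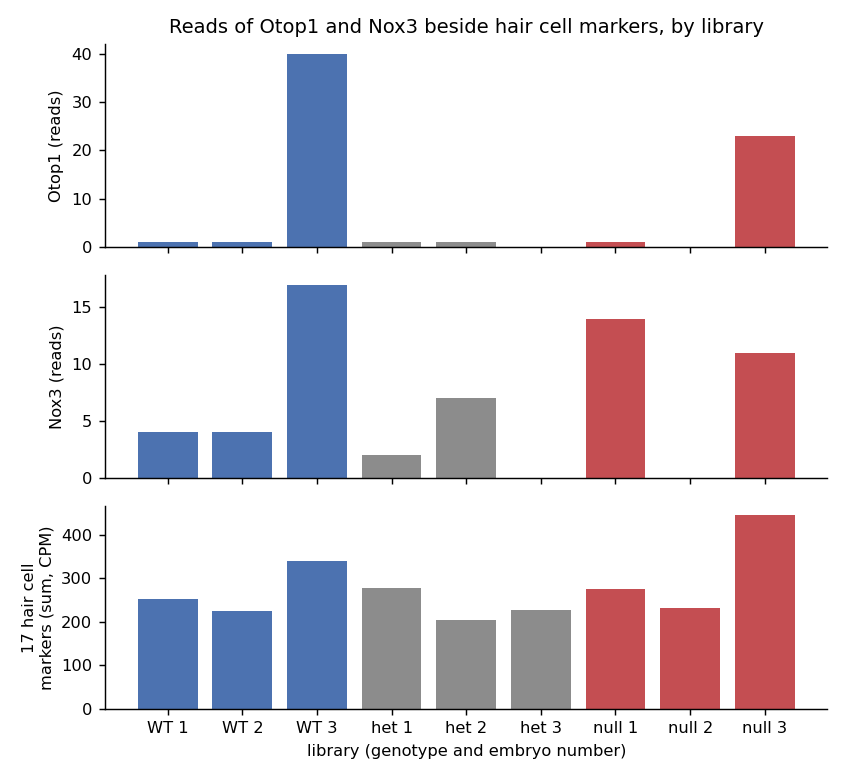
Reads of Otop1 and Nox3 (upper panels) and the summed CPM of 17 hair cell markers (lower panel) in each library, with WT in blue, het in gray and null in red. Otop1 has 40 reads in WT 3 and 23 in null 3, the libraries in which the hair cell sum is highest (340 and 444 CPM), while Nox3 also has 14 reads in null 1.

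Nox3 lay near the floor in every genotype. The gene (ENSMUSG00000023802), the catalytic subunit of the oxidase, lies on the minus strand at chr17:3635240-3696261 of mm10. It had 4, 4 and 17 reads in WT, 2, 7 and 0 in het and 14, 0 and 11 in null embryos, so WT embryo 3 and null embryos 1 and 3 were the higher libraries and null embryo 2 had none. In CPM the highest values were 0.576, 0.577 and 0.46. The filter on low counts kept Nox3 only for null against WT, where the log2 fold change was 0.15 with a standard error of 1.03 (edgeR adjusted p = 0.966). With no filter it was -1.38 between het and WT (edgeR adjusted p = 0.645) and 1.56 between null and het (edgeR adjusted p = 0.702), and none of the 3 comparisons passed.

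Noxo1, the organizer that brings the oxidase subunits together, was a few CPM in all libraries. The gene (ENSMUSG00000019320) lies on the plus strand at chr17:24696234-24700529 of mm10. It had 3.29, 3.1 and 3.02 CPM in WT, 4.65, 4.57 and 3.76 CPM in het and 4.04, 2.84 and 3.14 CPM in null embryos, from 75 to 127 reads per library. All het values were above all WT values, and null values overlapped with both groups. Means were 3.136 ± 0.143, 4.331 ± 0.493 and 3.34 ± 0.626 CPM in WT, het and null (SD, n = 3). The log2 fold change was 0.46 between het and WT (1.38-fold, standard error 0.169, unadjusted p = 0.0209, edgeR adjusted p = 0.267), 0.09 between null and WT (standard error 0.214, edgeR adjusted p = 0.906) and -0.38 between null and het (standard error 0.217, edgeR adjusted p = 0.535). None of these passed the test.

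Noxo1 counts carry an uncertainty of their own. Its exons share 2122 bases, 70.4% of their length, with exons of Tbl3 on the other strand. The use of strand in the counting is not given in the sources used here. Reads over the shared bases may therefore have been given to the wrong gene or to neither. The Noxo1 level per kilobase carries the same uncertainty. Tbl3, which encodes a protein of ribosome assembly, had 43.9 to 47 CPM in WT, 46.3 to 48.8 CPM in het and 40.4 to 56.7 CPM in null ducts, and its log2 fold change between het and WT was 0.06 (edgeR adjusted p = 0.75). The genes most like Noxo1 over the libraries were Ankle2 (r = 0.97), Larp4 (0.966) and Gm11688 (0.946).

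Cyba, the p22phox subunit that Nox3 shares with other NADPH oxidases, overlapped between all genotypes. The gene (ENSMUSG00000006519) lies on the minus strand at chr8:122424776-122432930 of mm10, in a region annotated on the other strand as Gm20388, with which it shares no exon bases. Its values were 15.5, 18.6 and 16.8 CPM in WT, 16.9, 14.4 and 19 CPM in het and 14.8, 22.7 and 18.9 CPM in null embryos. The groups overlapped, and null embryo 2 was the highest library. Log2 fold changes were 0.15 between null and WT (standard error 0.171, edgeR adjusted p = 0.785), -0.02 between het and WT (standard error 0.119, edgeR adjusted p = 0.971) and 0.17 between null and het (standard error 0.177, edgeR adjusted p = 0.718). Genes close to it over the libraries included Rce1 (r = 0.977) and Slc25a33 (0.965). Cyba is also a gene of macrophages, and 13 macrophage markers summed to 25.4 CPM in null embryo 3 and to 32.4 and 45.5 CPM in the first 2 WT embryos, against 6.83 to 10.8 CPM in the other 6 libraries. Its highest value, in null embryo 2, came with a macrophage sum of 10.8 CPM. The part of macrophages in the Cyba values was not tested.

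**Figure D4:**
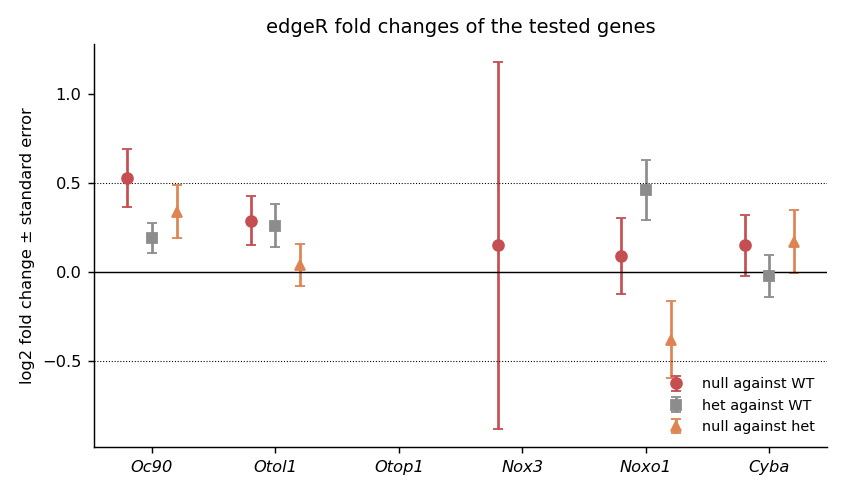
Log2 fold change (vertical axis, ± standard error) of each tested gene in null against WT, het against WT and null against het, from edgeR. The dotted lines mark the fold change threshold of 0.5 in each direction. Oc90 in null against WT (0.53) is the value above the upper line, and its adjusted p is 0.219.

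Counted over the 6 genes, edgeR called 0 of 5 tested between null and WT, where 1.71% of all genes tested were called, 0 of 4 between het and WT, where 0.151% were called, and 0 of 4 between null and het, where 0.615% were called. At an unadjusted p under 0.05 the count was 1 of 5 (Oc90), against 12.2% of all genes, 2 of 4 (Oc90 and Noxo1), against 13.1%, and 1 of 4 (Oc90), against 11.4%. DESeq2 called 1, 0 and 0 of them, where it called 3.55%, 1.72% and 2.12% of all genes. limma-voom called 0 in each, where it called 1.75%, 0.0637% and 0.586% of all genes. Libraries that lay wholly above the other group were found for 1 of 5 (Oc90) in null against WT, for 2 of 4 (Oc90 and Noxo1) in het against WT and for 1 of 4 (Oc90) in null against het, against 10.1%, 8.98% and 9.06% of all genes. Median log2 fold changes of the tested members were 0.15, 0.23 and 0.10, against 0.01, 0 and 0.01 over all genes. The 3 comparisons share libraries and are not independent of each other.

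The other genes of otoconial and otolithic matrix included the changes that did pass the test. Of 10 listed, 8 were tested in each comparison. Tectb, a tectorin of the membranes over the sensory epithelia, was at 758 ± 39.3 CPM in WT, 1167 ± 51.7 CPM in het and 1454 ± 305 CPM in null ducts (SD, n = 3), higher in null (log2 fold change 0.94, edgeR adjusted p = 0.0326) and in het against WT (0.62, edgeR adjusted p = 0.0107). Tecta, the larger tectorin and a marker of Kölliker's organ, fell from 2880 ± 320 CPM in WT to 1521 ± 125 CPM in null ducts (-0.93, edgeR adjusted p = 0.0128) and was also lower in null than in het (-0.88, edgeR adjusted p = 0.0265). Otog, encoding otogelin, had 1429 CPM in WT and 1790 CPM in null ducts (0.32, edgeR adjusted p = 0.403). Otogl, its relative, had 544 and 392 CPM (-0.48, edgeR adjusted p = 0.127). Sparc, a calcium-binding matrix protein, had 1935 and 2512 CPM (0.37, edgeR adjusted p = 0.287). Spp1, which encodes osteopontin, had 6.74 ± 2.54 CPM in WT and 26.3 ± 17.4 CPM in null ducts (SD, n = 3, log2 fold change 1.95, edgeR adjusted p = 0.229). At an unadjusted p under 0.05 there were 6 of 8 genes in null against WT, where 12.2% of all genes were. There were 3 of 8 in het against WT (13.1% of all genes) and 3 of 8 in null against het (11.4%). Over the 8 tested genes, 5 were positive in each comparison, with medians of 0.20 between null and WT, 0.02 between het and WT and 0.05 between null and het.

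Genes that supply ions to the endolymph held 1 gene that passed. Of 10 listed, 7 were tested. Car2, a cytosolic carbonic anhydrase, was at 90.9 ± 14.7 CPM in WT, 63 ± 3.82 CPM in het and 33.6 ± 5.5 CPM in null ducts (SD, n = 3) and was lower in null than in WT (log2 fold change -1.44, edgeR adjusted p = 0.00603) and than in het (-0.91, edgeR adjusted p = 0.0242). In het against WT its value was -0.53 (edgeR adjusted p = 0.0704), which DESeq2 called. At an unadjusted p under 0.05 there were 3 of 7 genes in null against WT (12.2% of all genes), 4 of 7 in het against WT (13.1%) and 2 of 7 in null against het (11.4%). The calcium pump gene Atp2b1 had 475 CPM in WT and 359 CPM in null ducts (-0.41, edgeR adjusted p = 0.243), and the anion exchanger gene Slc4a2 had 232 and 247 CPM (0.08, edgeR adjusted p = 0.707). Over the 7 genes, medians were 0.04 between null and WT, 0.09 between het and WT and -0.06 between null and het. Of 3 vesicle trafficking genes whose loss in mice spoils otoconia, none passed by edgeR, DESeq2 or limma-voom or had an unadjusted p under 0.05 in any comparison, and their log2 fold changes between null and WT were 0 for Bloc1s6, -0.05 for Ap3d1 and -0.05 for Bloc1s5. Of the other otopetrins, Otop2 had 0 reads in every library. Otop3 had 2 reads in het embryo 3 and 0 in the other 8 libraries, and neither gene was tested.

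None of the other NADPH oxidase genes was called by edgeR, DESeq2 or limma-voom in any comparison, and 0 had an unadjusted p under 0.05. Of 14 listed, 7 were tested between null and WT, 7 between het and WT and 6 between null and het, with medians of -0.22, -0.12 and 0.02. The highest CPM was that of the small GTPase gene Rac1, at 154 CPM in WT and 156 CPM in null ducts (log2 fold change 0.01, edgeR adjusted p = 0.984). Cybc1, whose product is a chaperone of the oxidase, had 38.2 and 40.8 CPM (0.09, edgeR adjusted p = 0.755). Nox4, a catalytic subunit that uses p22phox without an organizer, had 7.01 and 6.02 CPM (-0.22, edgeR adjusted p = 0.72). Noxa1, an activator protein that can take part in Nox complexes, had 1.41 and 0.871 CPM (-0.67, edgeR adjusted p = 0.663).

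Markers of the other cell types of the duct are given for the libraries from which these values come. Among all genes, 12.2% had an unadjusted p under 0.05 in null against WT, 13.1% in het against WT and 11.4% in null against het. In the same order, edgeR called 1.71%, 0.151% and 0.615%, DESeq2 3.55%, 1.72% and 2.12%, and limma-voom 1.75%, 0.0637% and 0.586%. Kölliker's organ markers, 7 genes that include Tecta, fell in null ducts against WT (median log2 fold change -1.76), with Tecta, Fgf10, Rgcc, Clic6, Efhd1, Itga8 and Gsn all called by edgeR. In null against het 6 of 7 were called lower (median -1.29). In het against WT all 7 log2 fold changes were negative (median -0.38), 4 had an unadjusted p under 0.05, and edgeR called 1 (Gsn) and DESeq2 called 2 (Efhd1 and Gsn). They summed to 3421 to 4346 CPM in WT, 3146 to 3940 CPM in het and 1711 to 1949 CPM in null libraries. The list comes from the study's own analysis of this tissue and genotype and is not independent evidence. Of 5 prosensory markers, Cdkn1b (log2 fold change 0.52, edgeR adjusted p = 0.0304) and Fgf20 (1.35, edgeR adjusted p = 0.0194) were higher in null than in WT, and 5 of 5 had an unadjusted p under 0.05. In het against WT 4 of 5 did, edgeR called 0 and DESeq2 called 1, Fgf20 (0.90, edgeR adjusted p = 0.0504). In null against WT both outer sulcus markers were positive (median 0.39), with 0 called by any of the 3 tools and 1 at an unadjusted p under 0.05. Of 4 dorsal otic markers tested, Dlx5 was higher in null ducts, from 1.77 to 5.75 CPM (1.69, edgeR adjusted p = 0.00768). Markers of mesenchyme, erythroid and endothelial cells summed to 33.3 to 1473 CPM, 36.7 to 239 CPM and 2.48 to 76.6 CPM per library. edgeR and limma-voom called 0 of them in any comparison, while in het against WT, where 6 of 7, 5 of 5 and 4 of 4 had an unadjusted p under 0.05, DESeq2 called 3, 5 and 1, all lower in het. DESeq2 also called the erythroid genes Hbb-bt, lower in null than in WT, and Hba-a1 and Hbb-bs, higher in null than in het. Among 13 macrophage markers edgeR called 1, Mrc1, which was higher in null than in het (2.65, edgeR adjusted p = 0.022). In het against WT, 7 of 10 macrophage markers tested had an unadjusted p under 0.05 and edgeR and limma-voom called 0, while DESeq2 called 7 (C1qa, C1qb, C1qc, Csf1r, Cx3cr1, Laptm5 and Mrc1), all lower in het. Of the 6 epithelial markers, 5 were positive between null and WT (median 0.16), and edgeR, DESeq2 and limma-voom called 0 in any comparison, with 0 at an unadjusted p under 0.05 in null against WT and 1 in het against WT.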

How the data were processed

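RNA of the cochlear ducts of 9 embryos was sequenced, 3 per genotype, with groups taken from the labelled genotype. The authors made TruSeq mRNA libraries, and their processing notes name cutadapt 1.13, STAR, HTSeq 0.6.1p1, DESeq2 and mm10. The deposited values are whole-number counts, one per Ensembl gene, which the authors did not normalize. The annotation release and strand setting are not given in the sources used here. Symbols, coordinates and exon lengths were read from GENCODE M21 (GRCm38, which is mm10).

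For every 2 genotypes, the 6 libraries concerned were fitted with edgeR 4.0.16 in R 4.3.3 (TMM, filterByExpr with a minimum count of 10, quasi-likelihood F test, Benjamini-Hochberg adjustment over all genes tested). A call required an adjusted p below 0.05 together with a log2 fold change beyond 0.5 in either direction. p-values rest on the spread between 3 littermates per genotype. Log2 CPM used a prior count of 2. Alternatives were DESeq2 1.42.0, limma-voom (limma 3.58.1), other normalizations and filters, all 9 libraries in one fit, a replicate block and leaving out embryos. On simulated counts for null against WT (16821 genes), edgeR recovered 45 of 100 genes changed by a log2 fold of 1 and 88 of 100 changed by 2, with 11 false calls. Intervals and floors cover counting error only.

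The 6 genes and all marker and pathway lists were chosen with earlier results of these data known, and the hair cell and epithelial lists after the values given here were seen. Named genes are the 6 genes, Prdm16, the genes edgeR called in the lists, the 2 highest in mean CPM of the otoconia, oxidase and roof lists (those of the other cell type lists are left out), and the genes most correlated with each member (5 for Oc90 and 3 for the others, at least 10 reads in every library). One of these correlated genes is not reported here. Other genes, such as Tbl3, the hair cell genes and further pathway members, were chosen after their values were seen. No set test was run. The chi-square per gene between libraries of one genotype, all above counting noise, was 5.7 to 17.9 within WT and het and 37.1 to 68.8 within null.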

Additional observations from a re-analysis of the deposited data

How the results depend on the processing

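Between null and WT, edgeR called 0 of the tested otoconia genes and DESeq2 called 1, Oc90 (log2 fold change 0.53, adjusted p = 0.0011). edgeR called 1 when WT embryo 3 and null embryo 3 were both left out, which was Oc90 too (0.67, edgeR adjusted p = 0.0429), an alternative chosen after seeing the data in which 4.53% of all genes were called, against 1.71% with all embryos. These are the WT and null libraries with the closest Oc90 levels, so leaving them out widens the difference by construction. Over the alternatives other than leaving out a single embryo, the adjusted p of Oc90 between null and WT ran from 0.0011 to 0.404, and it stayed positive in each. With no filter on low counts, 1 was called between het and WT, Otop1, whose reads came mainly from WT embryo 3, in a fit that called 2.14% of all genes, against 0.151% with the filter. Nox3 between null and WT turned to -0.83 in limma-voom. In fits without 1 embryo, values close to 0 changed sign. Nox3 between null and WT ranged from -0.46 to 1.11, Noxo1 from -0.07 to 0.20 (negative without null embryo 1) and Cyba from -0.01 to 0.29 (negative without null embryo 2). Cyba between het and WT ranged from -0.11 to 0.08 (positive without WT embryo 2 or het embryo 2), and Otol1 between null and het from -0.04 to 0.15 (negative without het embryo 3 or null embryo 1). None of these passed a test. Without 1 embryo, Oc90 between null and het ranged from 0.21 to 0.42, and Otol1 from 0.17 to 0.40 between null and WT and from 0.13 to 0.36 between het and WT. The cause was not tested. The other alternatives left every call as it was.

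The deviations of embryos of one number from their genotype means correlated at -0.284 to 0.202. The labels do not say whether these embryos share a litter, and the correlations cannot exclude it. With the replicate block, Oc90 between null and WT was 0.52 (edgeR adjusted p = 0.404), and it changed no call among the 6 genes. Counts of calls over all genes depended on the fit. Between null and WT, edgeR called 293, DESeq2 609, the fit without a filter 476, the fit of all 9 libraries 468, the replicate block 133 and the fit without WT embryo 3 and null embryo 3 786. Between het and WT the count was 26, with 0 in the fit of all 9 libraries, 297 in DESeq2, 197 with the replicate block, 11 in limma-voom and 684 without a filter. Between null and het it was 105, with 361 in DESeq2, 366 without a filter, 164 in the fit of all 9 libraries and 52 with the replicate block. Leaving out 1 embryo gave 68 to 446, 0 to 505 and 12 to 182 calls. Depth limits Otop1 and Nox3, which lay at or near the floor of 3 reads in most libraries.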
